A study of Sus scrofa with 6 samples.

Results

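The genes of the proteasome and its regulators were followed in the ventricular myocardium of minipigs with and without chronic pressure overload. Members were taken by name, as every gene of the deposited expression table whose symbol starts with PSMA, PSMB, PSMC, PSMD, PSME, PSMF or PSMG, which gave 41 of 13288 genes. Of these, 5 are alpha subunits and 5 are constitutive beta subunits of the 20S core. The 19S regulator gives 6 ATPases and 11 non-ATPase subunits. Another 5 are grouped here as immunoproteasome genes, namely 3 inducible catalytic subunits with PSME1 and PSME2 of the interferon-inducible activator PA28. Of the rest, 3 are other activators or an inhibitor, 4 are assembly chaperones, and 2 share the letters of the name without being subunits. The study sequenced RNA from the hearts of 6 male Tibetan minipigs, with 1 library for each animal. The sham group (replicates 1 to 3) had a thoracotomy without narrowing of the vessel. In the descending aortic constriction (DAC) group (replicates 4 to 6), sutures around the descending aorta were tightened under pressure recording. Tissue of both groups was collected 12 weeks after surgery, and the age of the animals is not given in the sources used here.

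The proteasome is the chamber in which cells break down proteins that carry a ubiquitin chain. Its 20S core is a stack of alpha and beta rings, whose catalytic beta subunits cut the protein chain, and the 19S regulator at its ends binds ubiquitin, unfolds the substrate with a ring of ATPases and feeds it into the core. Under interferon the catalytic subunits are replaced by those of the immunoproteasome, which shapes peptides for presentation to T cells, and in the heart the proteasome is known for the turnover of sarcomere and other muscle proteins.

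Values are FPKM, fragment numbers relative to transcript length and to the total mapped in a sample, so levels of different genes are given per length, of the transcripts as annotated. The DAC group was compared with the sham group on log2(FPKM + 1) by limma's moderated test. A gene was tested where 3 or more samples reached 1 FPKM, which held for 11029 genes. A gene is called here when the unadjusted P of that test is under 0.05, a lenient threshold, and the P adjusted over all genes tested (Benjamini-Hochberg) is given beside it. Log2 fold changes are DAC minus sham with their standard error (SE), and at low FPKM the added 1 shrinks them. Of the 41 members, 40 passed the filter. The exception was PSMC3IP, a meiotic recombination factor that is no proteasome subunit, at 0.163 to 0.625 FPKM.

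As a check of the tissue, MYL2, a ventricular myosin light chain, was at 4149 to 5033 FPKM and MYH7, the slow myosin heavy chain, at 1781 to 1935 FPKM. Across all genes no adjusted P was under 0.05, and the smallest from limma with Benjamini-Hochberg adjustment was 0.106. The FPKM of a sample summed to between 281377 and 308771. Mitochondrially encoded genes made up 32.8% of this sum in DAC replicate 5 and 24.0% to 27.2% in the other samples. Of 6 fibroblast markers, 4 were called higher in DAC, and their sum was 473 to 547 FPKM in sham and 679 to 768 FPKM in DAC. Of 6 endothelial markers, 2 were called lower and 1 higher, and of 8 cardiomyocyte markers 1 was called lower. Among all genes tested, 5.27% were called lower and 3.25% higher. Of 4 smooth muscle markers, 1 was called higher, and their median log2 fold change was 0.21. The part of these shifts in the results for the proteasome was not tested, and in bulk tissue fewer cells of a type and less RNA per cell cannot be told apart.

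Few proteasome genes were called, in either direction. PSME2, a subunit of the interferon-inducible activator PA28, was called higher in DAC. PSMA4, a subunit of the alpha ring, and PSMF1, the proteasome inhibitor PI31, were called lower. Called lower were thus 2 of 40 members, against 5.27% of all genes tested, and called higher was 1 of 40, against 3.25%. The median log2 fold change of the members was 0.022, beside -0.016 for all genes tested, with 18 lower and 22 higher means. Single members ranged from -0.44 to 0.36, and their median SE was 0.14. All DAC samples lay below all sham samples in 2 of 40 members, against 8.91% of all genes, and above them in 2 of 40, against 6.01%. Both pairs of counts are near the background. No member passed adjustment over all genes, and the smallest adjusted P among them was 0.522 (limma, Benjamini-Hochberg), for PSME2.

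**Figure D1:**
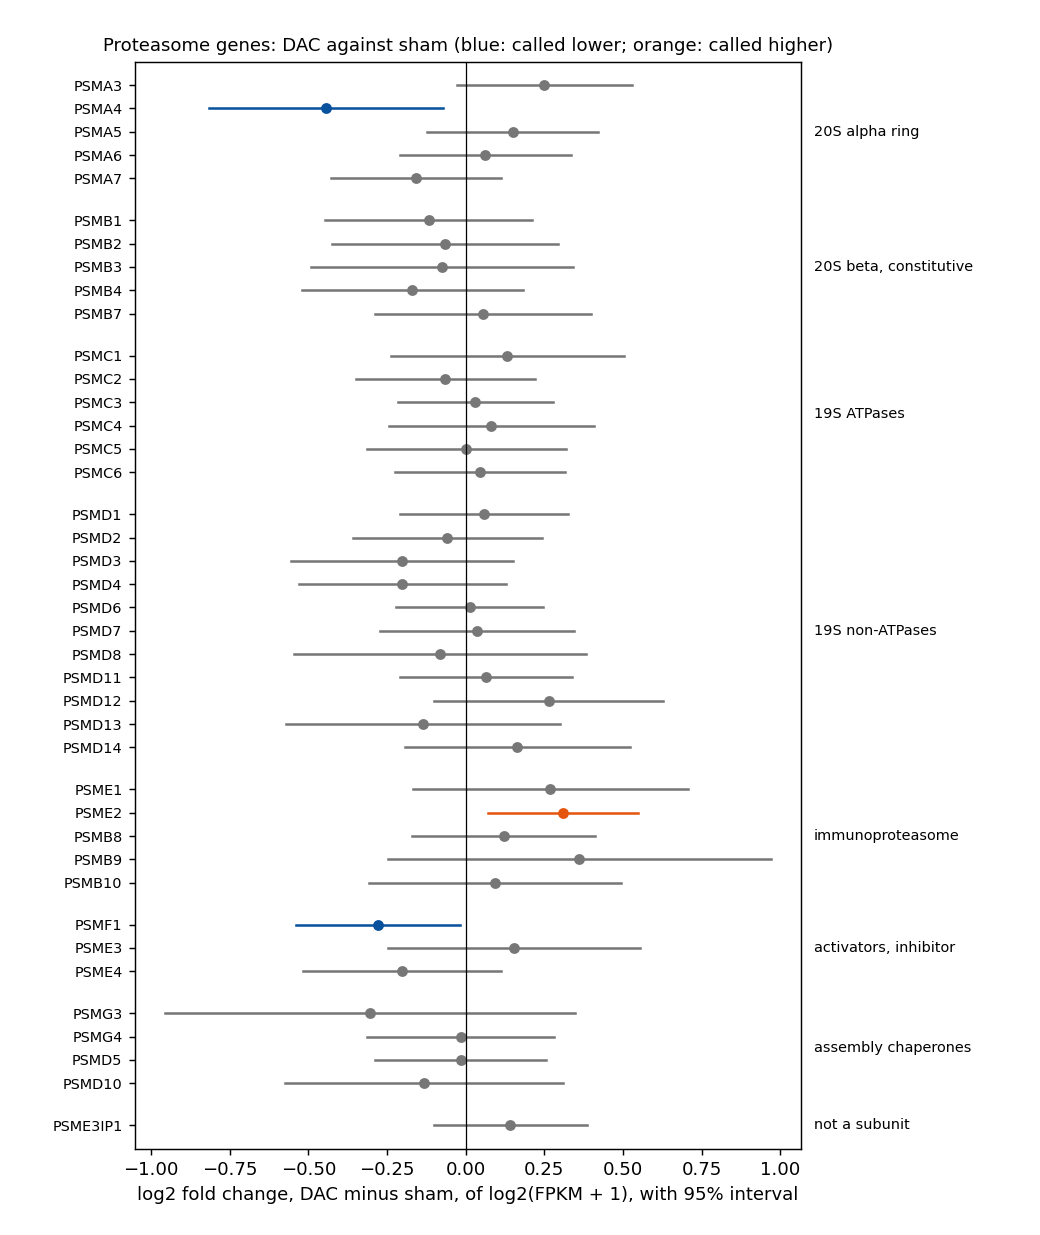
Log2 fold change (DAC minus sham, n = 3 minipigs per group) of log2(FPKM + 1) for the 40 tested members, grouped by role, with points for estimates and lines for 95% intervals. The intervals of all but 3 genes cross 0, namely PSMA4 and PSMF1 on the lower side and PSME2 on the higher side.

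The alpha ring forms the outer gate of the 20S core and gave members on both sides. PSMA4 had 4.13, 3.53 and 4.43 FPKM in sham replicates 1 to 3 and 2.11, 2.61 and 3.47 FPKM in DAC replicates 4 to 6. All DAC values were below all sham values, but DAC replicate 6 was within 0.1 FPKM of sham replicate 2. The log2 fold change of PSMA4 was -0.44 (SE 0.16, 95% interval -0.82 to -0.07, limma adjusted P = 0.553). This call was lost without sham replicate 1, sham replicate 3, DAC replicate 4 or DAC replicate 5, where the log2 fold change of PSMA4 was -0.43, -0.39, -0.32 and -0.43, and with each gene's own variance. PSMA4 lies on chromosome 7 of Sscrofa11.1 at 47434919 to 47460998, minus strand, and this annotated locus of 26.1 kb is 3.25 times as long as the RefSeq gene and overlaps HYKK.

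PSMA3, another alpha subunit, moved the other way without passing the test. It had 17.7, 22.4 and 21.7 FPKM in sham and 25.2, 24.5 and 24.1 FPKM in DAC, so the groups did not overlap. Its log2 fold change was 0.25 (SE 0.12, limma adjusted P = 0.596), with a 95% interval from -0.03 to 0.53. PSMA3 was called higher after quantile normalization, at 0.30, and with the mitochondrially encoded genes left out, at 0.29. PSMA7 was the most abundant of all members, at 112 ± 3.88 FPKM in sham and 101 ± 11.7 FPKM in DAC (SD, n = 3), and its log2 fold change was -0.16 (limma adjusted P = 0.713). Over the 5 alpha subunits the median was 0.062, which is the value of PSMA6. The PSMA6 row has the symbol PRORP by identifier, and its locus is 7.37 times as long as the RefSeq gene.

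The constitutive beta subunits include the proteolytic sites, and none of the 5 was called. PSMB4, a structural beta subunit, had 70.3, 68.7 and 69.1 FPKM in sham and 49.1, 69.7 and 68.2 FPKM in DAC. A single DAC sample, replicate 4, was low and the other two were at the sham level. The log2 fold change of PSMB4 was -0.17 (SE 0.15, 95% interval -0.52 to 0.18). PSMB1, also without a catalytic site, had the same shape, with 62.4, 64.8 and 69.1 FPKM in sham and 49.8, 69.0 and 63.3 FPKM in DAC. PSMB2, the least abundant of this group, had 5.68, 6.08 and 5.78 FPKM in sham and 4.26, 6.63 and 5.97 FPKM in DAC. DAC replicate 4 was the lowest of all 6 samples in 5 of these 5 genes, beside 21.1% of all genes tested. Their median log2 fold change was -0.075.

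Of the constitutive catalytic subunits, PSMB7 carries the trypsin-like site. It had 67.5, 62.1 and 67.1 FPKM in sham and 55.6, 79.5 and 71.4 FPKM in DAC, with a log2 fold change of 0.055 (SE 0.15). The DAC samples included both the lowest and the highest value of PSMB7. The other two catalytic subunits have no symbol in the table, and a row was taken for each from its position alone. The row at PSMB6, which carries the caspase-like site, had 81.7, 81.4 and 88.2 FPKM in sham and 59.7, 83.1 and 78.5 FPKM in DAC (log2 fold change -0.19, SE 0.14). The row at PSMB5, which carries the chymotrypsin-like site, had 5.87, 5.21 and 5.70 FPKM in sham and 5.52, 14.5 and 4.84 FPKM in DAC (log2 fold change 0.35, SE 0.35). DAC replicate 5 alone was high for PSMB5, and without it the log2 fold change was -0.094. The PSMB5 row also overlaps C14orf93, so its reads may not all be of PSMB5.

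**Figure D2:**
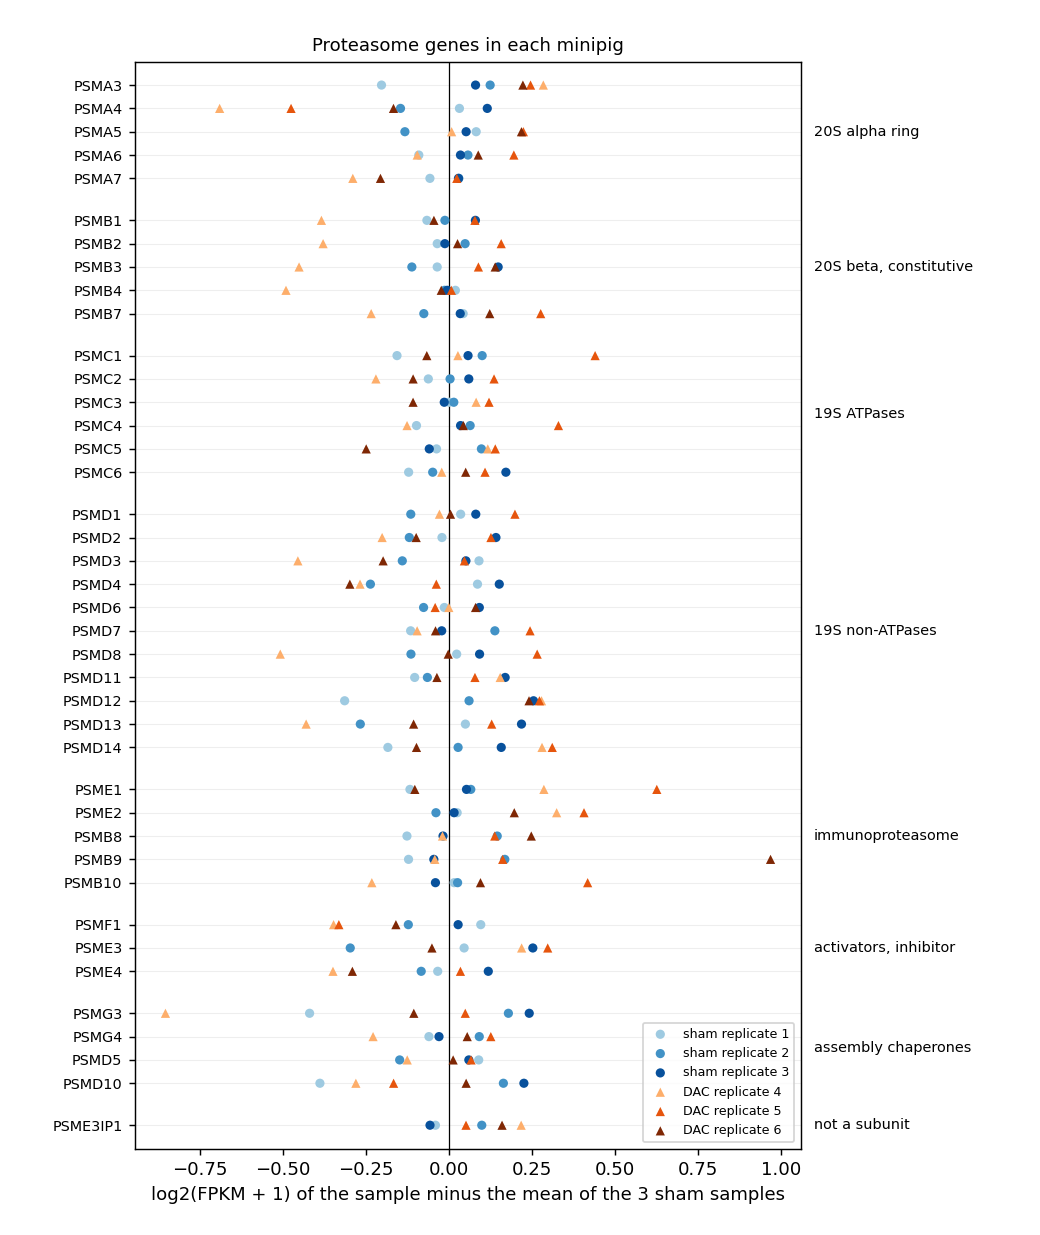
Value of log2(FPKM + 1) in each minipig minus the mean of the 3 sham minipigs, for the 40 tested members by role, with circles for sham replicates 1 to 3 and triangles for DAC replicates 4 to 6. DAC replicate 4 is the lowest of the 6 samples in 19 genes and DAC replicate 5 the highest in 18.

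The immunoproteasome genes all had a higher mean in DAC, as did 5145 of the 11029 genes tested. Of the 5, PSME2 alone passed the test. PSME2 had 17.1, 16.3 and 17.0 FPKM in sham and 21.2, 22.6 and 19.4 FPKM in DAC. All DAC values were above all sham values, and the lowest DAC value exceeded the highest sham value by more than the whole sham range. The log2 fold change of PSME2 was 0.31 (SE 0.10, 95% interval 0.07 to 0.55, limma adjusted P = 0.522), from a mean of 16.8 ± 0.422 FPKM in sham to 21.1 ± 1.60 FPKM in DAC (SD, n = 3). The call was lost without sham replicate 2, at a log2 fold change of 0.29, and without DAC replicate 5, at 0.26. In the other 12 of 14 alternatives tried PSME2 was called higher.

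PSME1, which forms the PA28 ring together with PSME2, had 33.7, 38.4 and 38.1 FPKM in sham and 44.9, 57.1 and 34.1 FPKM in DAC. The groups overlapped, since DAC replicate 6 was within the sham range. The log2 fold change of PSME1 was 0.27 (SE 0.19, limma adjusted P = 0.705). Without DAC replicate 6 it was 0.46 and PSME1 was called higher, whereas without DAC replicate 5 it was 0.091 and PSME1 was not called. PSME2 (chromosome 7, 75151354 to 75157872, plus strand, Sscrofa11.1) lies within the annotated locus of PSME1 (75148754 to 75171146, minus strand). The PSME1 locus is 8.29 times as long as the RefSeq gene and also overlaps RNF31, EMC9, FITM1 and DCAF11. The PSME2 locus overlaps RNF31 too, and it is 1.97 times as long as its RefSeq gene. The sources used here do not say whether strand was used in counting. Without strand, reads in any stretch that the transcripts of PSME1 and PSME2 share cannot be told apart.

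The inducible catalytic subunits were at low levels and none was called. PSMB8, the inducible counterpart of PSMB5, had 4.30, 5.40 and 4.72 FPKM in sham and 4.71, 5.37 and 5.87 FPKM in DAC (log2 fold change 0.12, SE 0.12). PSMB9, the counterpart of PSMB6, had 1.97, 2.63 and 2.13 FPKM in sham and 2.13, 2.61 and 5.31 FPKM in DAC. DAC replicate 6 was over 2 times the next sample, and the other two DAC values were within the sham range. The log2 fold change of PSMB9 was 0.36 (SE 0.26, limma adjusted P = 0.709), the highest of the 40 members, and 0.059 without DAC replicate 6. PSMB10, the counterpart of PSMB7, had 2.39, 2.41 and 2.26 FPKM in sham and 1.85, 3.48 and 2.58 FPKM in DAC (log2 fold change 0.093, SE 0.17). Sham values of PSMB10 were tight, and the DAC samples lay on both sides of them.

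**Figure D3:**
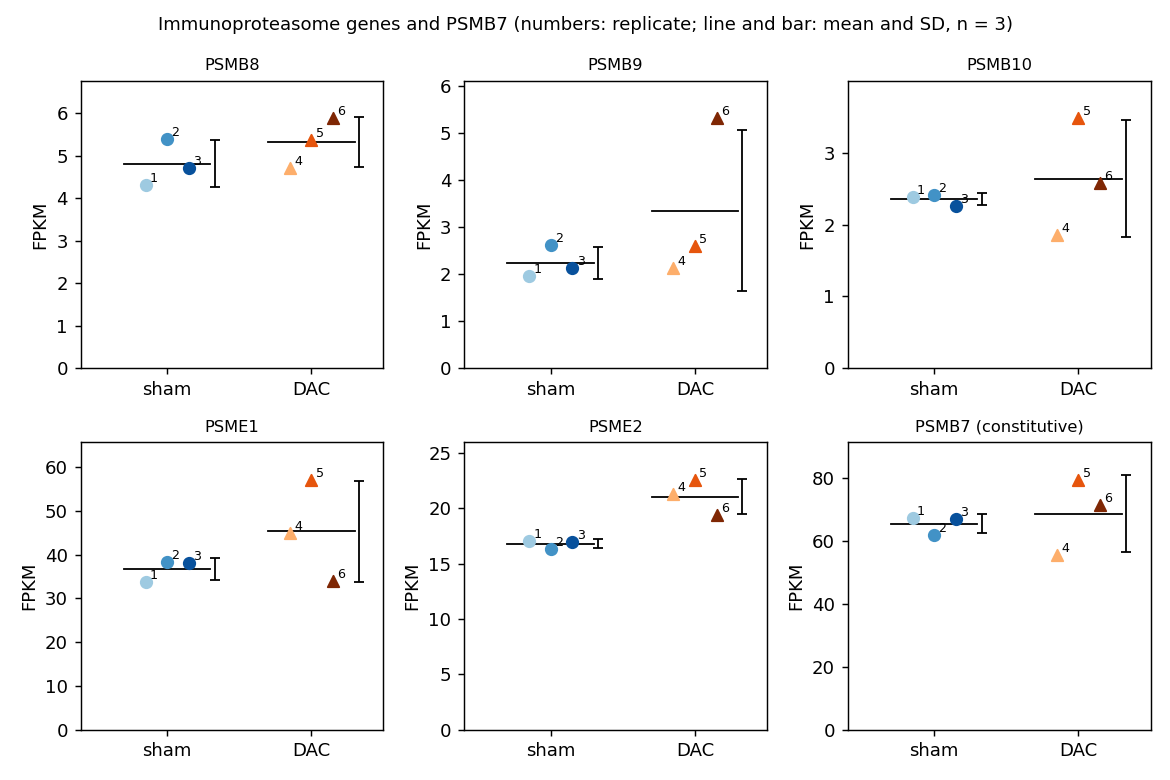
FPKM of the 5 immunoproteasome genes and of the constitutive subunit PSMB7 in each minipig, with the replicate number beside each point and lines and bars for the mean and SD (n = 3 per group). The groups are apart in PSME2 alone, at 16.3 to 17.1 FPKM in sham and 19.4 to 22.6 FPKM in DAC, and 1 DAC sample carries the higher mean of PSMB9.

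Set against the subunits they replace, the inducible subunits did not separate the groups. PSMB9 amounted to 2.41%, 3.23% and 2.41% of the FPKM of the PSMB6 row in sham and to 3.57%, 3.14% and 6.76% in DAC. PSMB10 amounted to 3.37% to 3.88% of PSMB7 in sham and to 3.34% to 4.37% in DAC. PSMB8 was closer to its counterpart, but the PSMB5 row was itself low. Over the 6 samples its mean was 6.94 FPKM, beside 78.8 FPKM for the PSMB6 row and 67.2 FPKM for PSMB7. The means of PSMB8, PSMB9 and PSMB10 were 5.06, 2.795 and 2.495 FPKM. PSMB8 amounted to 73.3%, 104% and 82.8% of the PSMB5 row in sham and to 85.3%, 37.1% and 121% in DAC. The annotated loci of PSMB8, PSMB9 and PSMB10 are 6.20, 4.28 and 2.72 times as long as their RefSeq genes. The 3 inducible catalytic subunits summed to 8.66, 10.4 and 9.10 FPKM in sham and to 8.70, 11.5 and 13.8 FPKM in DAC, and again the groups overlapped. With PSME1 and PSME2 added, the sums were 59.5, 65.1 and 64.1 FPKM in sham and 74.8, 91.1 and 67.2 FPKM in DAC, which did not overlap. Most of this sum is PSME1 and PSME2.

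Markers of leukocytes, cells that express the immunoproteasome constitutively, were measured beside these genes. Of 15 markers, 11 were found by symbol and 9 passed the filter. Of these 9, 1 was called lower in DAC, the macrophage receptor CD163, beside 5.27% of all genes tested. The 11 markers summed to 59.1, 57.0 and 60.6 FPKM in sham and to 48.3, 66.8 and 61.4 FPKM in DAC. None of the 11 was at 0 in any sample. The sum was thus lowest in DAC replicate 4 and highest in DAC replicate 5, as for the constitutive beta subunits. The part of leukocyte number in the values of the immunoproteasome genes was not tested.

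Genes of class I antigen presentation, the pathway that the immunoproteasome serves, gave no call among the 9 of 13 that were tested. Their median log2 fold change was 0.12. DAC replicate 6 was the highest sample in 17.6% of all genes tested and in 6 of the 9. Among these were TAP1 and TAP2, the peptide transporter genes, whose loci overlap those of PSMB8 and PSMB9 on chromosome 7. TAP1 had 4.73, 6.17 and 6.93 FPKM in sham and 5.38, 5.72 and 8.83 FPKM in DAC. TAP2 had 3.82, 4.58 and 4.51 FPKM in sham and 2.96, 2.74 and 4.85 FPKM in DAC. All 4 genes of this cluster were highest in DAC replicate 6, and how reads in the shared stretches were assigned is not given in the sources used here.

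No ATPase of the 19S base was called, and 5 of the 6 had a higher mean in DAC, beside 5145 of the 11029 genes tested. The median log2 fold change of the ATPases was 0.038. DAC replicate 5 was the highest of the 6 samples in 5 of them, against 14.9% of all genes tested. PSMC1 had 28.2, 33.9 and 32.9 FPKM in sham and 32.2, 43.2 and 30.1 FPKM in DAC (log2 fold change 0.13, SE 0.16). PSMC4 had 14.0, 15.8 and 15.4 FPKM in sham and 13.7, 19.1 and 15.5 FPKM in DAC (log2 fold change 0.082, SE 0.14). In both genes a single DAC sample, replicate 5, stood above the sham range. The most abundant ATPase gene was PSMC2, with a mean of 38.3 FPKM over the 6 samples, and the lowest was PSMC3, with 10.4 FPKM. The PSMC3 locus is 22.2 times as long as its RefSeq gene and overlaps CELF1.

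The non-ATPase subunits belong to the lid and the base and include ubiquitin receptors, and none of the 11 was called. Their log2 fold changes ran from -0.20 to 0.26, around a median of 0.012. PSMD12, a lid subunit and the least abundant of the group, had 6.06, 8.15 and 9.46 FPKM in sham and 9.64, 9.59 and 9.37 FPKM in DAC. The DAC values of PSMD12 lay together at or just above the upper end of the sham range, and the log2 fold change was 0.26 (SE 0.15, limma adjusted P = 0.656). Without sham replicate 3 it was 0.39 and PSMD12 was called higher, whereas without sham replicate 1 it was 0.11 and PSMD12 was not called. PSMD4, a ubiquitin receptor and the most abundant of the group, had 53.9, 42.9 and 56.5 FPKM in sham and 42.0, 49.4 and 41.1 FPKM in DAC. The groups overlapped in PSMD4, and its log2 fold change was -0.20 (SE 0.14, limma adjusted P = 0.706).

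PSMF1, named for its inhibition of the 20S core in vitro, was called lower. It had 20.8, 17.8 and 19.8 FPKM in sham and 15.1, 15.2 and 17.3 FPKM in DAC, and the groups did not overlap. The highest DAC value and the lowest sham value were close together. The log2 fold change of PSMF1 was -0.28 (SE 0.11, 95% interval -0.54 to -0.02, limma adjusted P = 0.584). The call was lost without sham replicate 1, sham replicate 3, DAC replicate 4 or DAC replicate 5, where the log2 fold change of PSMF1 was -0.23, -0.27, -0.25 and -0.25. It was also lost after quantile normalization and with the mitochondrially encoded genes left out, at -0.23 and -0.24. PSMF1 lies on chromosome 17 of Sscrofa11.1 at 34098991 to 34169230, minus strand, and its locus overlaps TMEM74B.

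The activators PSME3 (PA28 gamma, of the nucleus) and PSME4 (PA200) were not called. PSME4 had 16.3, 15.7 and 18.2 FPKM in sham and 12.9, 17.2 and 13.5 FPKM in DAC (log2 fold change -0.20, SE 0.13, limma adjusted P = 0.693). DAC replicate 5 lay within the sham range of PSME4 and the other two DAC samples below it, and without DAC replicate 5 the log2 fold change was -0.32 and PSME4 was called lower. PSME3 had 5.44, 4.08 and 6.43 FPKM in sham and 6.26, 6.67 and 5.02 FPKM in DAC (log2 fold change 0.15, SE 0.17). PSME3IP1, which binds PSME3 and is counted among the members for its name alone, had a log2 fold change of 0.14 (SE 0.10).

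The assembly chaperones, which build the particle and then leave it, had lower means in DAC in 4 of 4 member genes, and none was called. Lower means were found in 5884 of the 11029 genes tested. PSMD5 and PSMG4 were at -0.016 each on the log2 scale and were above 0 in 5 of 14 alternatives each. The chaperones PSMD9 and PSMG2, found outside the name rule, were at 0.15 and 0.013. PSMG3 had 9.45, 14.8 and 15.5 FPKM in sham and 6.74, 13.5 and 12.0 FPKM in DAC (log2 fold change -0.30, SE 0.28). PSMD10, also known as gankyrin, had 3.12, 5.04 and 5.31 FPKM in sham and 3.44, 3.81 and 4.59 FPKM in DAC (log2 fold change -0.13, SE 0.19). For both genes sham replicate 1 was low, and the groups overlapped. The median log2 fold change of the 4 chaperones was -0.074.

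DAC replicates 4 and 5 lay apart in most members. DAC replicate 5 was above DAC replicate 4 in 35 of 40 members, by a median of 0.26 on the log2 scale, whereas it was above in 45.6% of all genes. The exceptions were PSMA3, PSMD6, PSMD11, PSMD12 and PSME3IP1. Relative to the sham mean, the median member was at -0.13 in DAC replicate 4, 0.13 in DAC replicate 5 and -0.013 in DAC replicate 6, while the median of all genes was between -0.039 and 0.011 in these samples. DAC replicate 4 was the lowest of the 6 samples in 19 of 40 members, against 21.1% of all genes, and DAC replicate 5 was the lowest in 0, against 23.6%. DAC replicate 5 was the highest in 18 of 40, against 14.9% of all genes. These are descriptions of the 3 animals, and genes measured in 1 animal are not independent replicates. The share of mitochondrially encoded FPKM was also highest in DAC replicate 5, at 32.8% beside 27.2% in DAC replicate 4 and 27.1% in DAC replicate 6, and its part was not tested.

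The same order was seen in the sums of the 26S subunits and of the constitutive beta subunits, but not in every role. For the ATPases and the immunoproteasome genes the lowest DAC sum was in DAC replicate 6. The 27 subunits of the constitutive 26S particle in the table summed to 806, 809 and 867 FPKM in sham and to 717, 906 and 798 FPKM in DAC. The DAC samples held both the lowest and the highest sum, and the DAC mean of 807 FPKM (SD 94.7) was within the sham spread of 827 ± 34.4 FPKM. The 5 constitutive beta subunits summed to 244, 238 and 255 FPKM in sham and to 187, 267 and 253 FPKM in DAC. The median SD on the log2 scale was 0.11 in sham and 0.18 in DAC over the members, beside 0.14 and 0.17 over all genes tested.

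**Figure D4:**
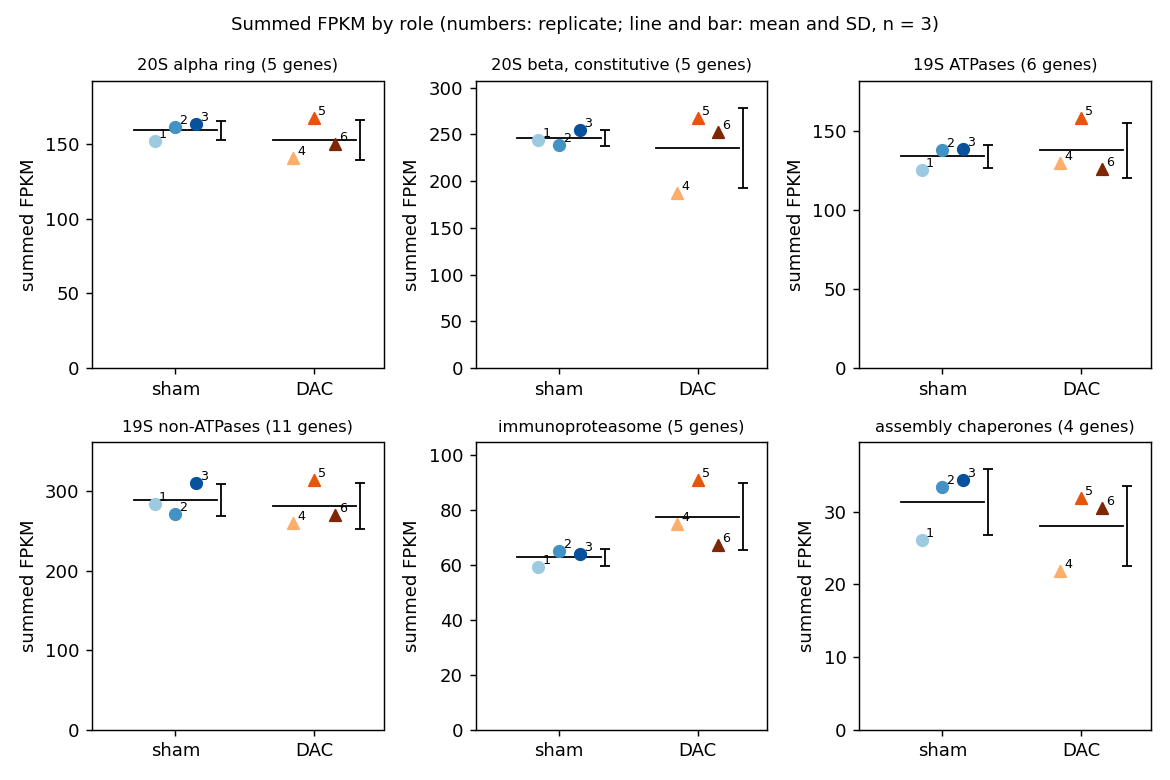
Summed FPKM of the members of 6 roles in each minipig, with the replicate number beside each point and lines and bars for the mean and SD of the sums (n = 3 per group). DAC replicate 5 has the highest sum in the first 5 panels and DAC replicate 4 the lowest DAC sum in 4 of the 6, and the groups are apart in the immunoproteasome panel alone.

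Levels of subunits that occur in equal number in the particle were far apart. Mean FPKM in the 10 constitutive 20S genes spanned 31.6-fold, from 3.38 for PSMA4 to 107 for PSMA7. The ATPases spanned 3.66-fold and the non-ATPases 5.47-fold. Among the 26S genes, the 5 with an annotated locus over 2 times as long as their RefSeq gene had a median of 10.5 FPKM and the other 22 had a median of 30.7 FPKM. Of the 41 members, 9 had such a long locus and 23 overlapped another gene of the table. Whether locus length or overlap bears on the levels was not tested.

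Outside the name rule, partners of the proteasome had lower means in DAC in 20 of the 22 genes tested. Of all genes tested, 5884 of 11029 had lower means. The median log2 fold change of the partners was -0.13. Of the 22, 3 were called lower and 0 were called higher, against 5.27% and 3.25% of all genes tested. All DAC samples lay below all sham samples in 7 of 22, against 8.91%. The genes called were UBQLN4, a ubiquilin that carries ubiquitinated proteins to the proteasome, UFD1, a cofactor of the unfoldase VCP, and ADRM1, a ubiquitin receptor of the 19S particle.

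UBQLN4 had 14.0, 14.3 and 14.5 FPKM in sham and 11.0, 11.4 and 11.1 FPKM in DAC, with a gap between the groups wider than the spread within either. Its log2 fold change was -0.32 (SE 0.091, limma adjusted P = 0.5), and it was called lower in 14 of 14 alternatives. UFD1 had 10.3, 11.4 and 8.87 FPKM in sham and 8.03, 8.30 and 8.05 FPKM in DAC, which did not overlap (log2 fold change -0.29, SE 0.12, limma adjusted P = 0.584). ADRM1 had 29.3, 28.7 and 27.8 FPKM in sham and 26.2, 23.1 and 23.2 FPKM in DAC, which did not overlap either (log2 fold change -0.24, SE 0.10, limma adjusted P = 0.586). The calls of UFD1 and ADRM1 were lost in 9 and 8 of 14 alternatives, with fold changes below 0 in each. Both calls were lost with median scaling, after quantile normalization and with the mitochondrially encoded genes left out. That of UFD1 was also lost with sample weights. UFD1 lost its call without any single sample other than sham replicate 3, and ADRM1 without any other than DAC replicate 4, where the log2 fold changes of UFD1 and ADRM1 ranged from -0.30 to -0.21 and from -0.26 to -0.21.

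POMP, the chaperone that completes the 20S core, had 8.87, 7.77 and 8.39 FPKM in sham and 7.86, 10.2 and 8.92 FPKM in DAC (log2 fold change 0.091, SE 0.12). NFE2L1, the factor known to drive transcription of proteasome genes when proteolysis falls short, had 118, 148 and 116 FPKM in sham and 120.1, 88.6 and 122 FPKM in DAC (log2 fold change -0.21, SE 0.16). The lowest value of NFE2L1 was in DAC replicate 5, and the other two DAC values were within the sham range.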

How the data were processed

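RNA of ventricular tissue from 6 minipigs (3 sham and 3 DAC, separate animals) was made into libraries (NEBNext Ultra kit) for paired-end sequencing (Illumina HiSeq). The authors deposited 1 table of FPKM with a column for each minipig. The submitters' processing notes name HISAT2 and the build susScr11, and the program that made the FPKM is not given in the sources used here. The highest sample of every gene listed reaches 0.5 FPKM. Depth is unknown: no steps of whole reads were seen in the low values, so precision rests on the spread between animals.

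Values were taken as log2(FPKM + 1) and compared with limma 3.58.1 in R 4.3.3 (moderated test with a variance trend), in the 11029 genes that reached 1 FPKM in 3 or more samples, with Benjamini-Hochberg adjustment over these genes. Calls used an unadjusted P under 0.05, the study's threshold, and single unadjusted P values are not printed. An exact permutation test of 3 against 3 cannot go below 0.1. The steps were tested on simulated data. Sums and ratios were made from FPKM with pandas 2.3.3 and drawn with matplotlib 3.10.9. Symbols came from the table, and rows without one, such as that of TAP2, took theirs from a table of identifiers. This named 3 more proteasome rows. Another 3 were named by position (an overlap of at least 80% both ways) in RefSeq on Sscrofa11.1. Of the 41 members, 40 were in RefSeq by symbol, and all 40 overlapped its position. PSMA6 has the symbol PRORP in the table of identifiers, and the authors' symbol was kept. No sequences are shown.

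Members and gene lists were chosen with earlier results of these data known. Named with values were the immunoproteasome and constitutive catalytic subunits, every called member, the 2 members of smallest P and those of highest and lowest mean in each role, members not tested or no subunits, POMP, NFE2L1 and the called genes of the partner and presentation lists. The exceptions to a count, TAP1, TAP2 and the marker genes were picked after their values were seen. The alternatives were a pseudocount of 0.1, no filter, a filter at 5 FPKM, scaling to equal medians, quantile normalization, the mitochondrially encoded genes left out with rescaling, each gene's own variance, sample weights, and each sample left out in turn. A list of ubiquitin genes is not reported here.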

Additional observations from a re-analysis of the deposited data

How the results depend on the processing

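The median log2 fold change of the members was 0.022 with all 6 samples. Over the 14 alternatives it ran from -0.062 without DAC replicate 5 to 0.091 without DAC replicate 4, and was below 0 in 2 of them. These moves were smaller than the spread between replicates. That spread comes from the same samples, so leaving 1 out could hardly exceed it, and no stability is read from this. Members called lower, 2 in all 6 samples, were 1 with a minimum of 5 FPKM, where PSMA4 was not tested, and 1 each after quantile normalization, with the mitochondrially encoded genes left out and with each gene's own variance. Members called higher, 1 in all 6 samples, were 2 after quantile normalization and 2 with the mitochondrially encoded genes left out, PSMA3 and PSME2 in both. Leaving out 1 sample gave 0 to 2 called lower and 0 to 2 called higher. Of all genes, 939 were called, 579 with a minimum of 5 FPKM and 600 to 1029 with 1 sample left out, where sham replicate 1 gave the lowest number. The split of all calls into lower and higher was 581 and 358, 474 and 438 with median scaling, 469 and 418 after quantile normalization, 408 and 502 with the mitochondrially encoded genes left out, 414 and 165 with a minimum of 5 FPKM and 485 and 470 without DAC replicate 5. The cause of these shifts was not tested. No paired analysis was possible because the groups share no replicate number. Depth is unknown, and 3 animals per group limit what can be called.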

Other observations

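Beyond the name rule, 6 rows of proteasome genes were found by identifier or position, and 0 of them were called. PSMB5 and PSMB6 are described above. PSMA1, an alpha subunit, had 9.76, 9.57 and 13.4 FPKM in sham and 9.90, 10.5 and 10.2 FPKM in DAC (log2 fold change -0.074, SE 0.14). PSMA2, also of the alpha ring, had 12.0, 11.0 and 13.7 FPKM in sham and 11.9, 15.2 and 12.8 FPKM in DAC (log2 fold change 0.11, SE 0.13). The assembly chaperone PSMD9 had a log2 fold change of 0.15 (SE 0.14). The row at PSMG2, another assembly chaperone, had a log2 fold change of 0.013 (SE 0.15). PSMA8 and PSMB11 have no row at their RefSeq position, the position of PSMG1 lies within the row of BRWD1, and no value is given for these 3 genes.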
